A study of Mus musculus with 8 samples.

Results

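Expression of 50 cell cycle and DNA replication genes in bone marrow-derived macrophages (BMDMs) was read from RNA-Seq counts. The genes were taken from a list of S-phase and mitotic genes and were found by symbol in the annotation of the 54532 counted Ensembl genes, where all 50 were present. Of them, 28 act in DNA replication (S-phase members), 21 act in mitosis (mitotic members) and 1, Cdkn1a, encodes an inhibitor of cyclin-dependent kinases. All 50 were among the 14591 genes tested after low counts had been removed, and each had at least 14 counts in every library.

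BMDMs were grown for 7 days from the tibia and femur marrow of wild-type (WT) and Trex1-/- (Trex1-KO) mice aged 6 to 8 weeks, in medium that contained supernatant of L929 cells, a fibroblast line that secretes macrophage colony-stimulating factor. The 4 groups were WT and Trex1-KO BMDMs, which were given vehicle (DMSO), and Trex1-KO BMDMs given H151 (500 nM) or SN-011, each for 12 h. Both compounds are small-molecule antagonists of STING, the adaptor that relays the signal of the cytosolic DNA sensor cGAS. For SN-011 the labels give no dose, and the study's methods give the same dose as for H151. Trex1 is lost from all cells of these animals, which came from heterozygous crosses, and the WT animals were purchased, so the groups were not littermates. All animals were of C57BL/6J background. No WT cells were given an antagonist. Each group held 2 libraries, which the study describes as independent experiments. The labels do not say whether they came from separate animals, so p-values measure the spread between these libraries, which may be technical.

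A cell copies its DNA in S phase and divides it in mitosis. E2F factors drive the genes of S phase, among them the MCM helicase, the sliding clamp Pcna and the enzymes that supply deoxynucleotides. Genes of mitosis (cyclin B, Plk1, kinesins and kinetochore proteins) are driven later, by the MuvB complex with B-Myb and Foxm1, and their products peak in G2 and mitosis. Macrophage precursors in marrow culture divide in response to macrophage colony-stimulating factor and divide less as they mature. Cdkn1a (p21) binds cyclin-dependent kinases and Pcna and holds cells in G1. Trex1 is an exonuclease that removes cytosolic DNA.

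Promoter sequences from RefSeq (build GRCm38, 250 bases before to 50 bases after the start site) were matched to 42 of the 50 members by symbol. The 8 without an entry were Mcm4, Gins2, Ccne2, Ccna2, Foxm1, Aurkb, Kif20a and Tpx2. Letters of the E2F site (the words TTGGCGC and TTCCCGC, beside TTCGCGC and also TTGCCGC, on either strand) were found in 16 of 25 S-phase promoters and in 3 of 16 mitotic promoters, against 10.9% of 27025 promoters of all genes. Letters of the CHR element, to which MuvB binds (TTTGAA or TTCGAA, on either strand, the second being its own reverse complement), were found in 5 of 25 S-phase and 12 of 16 mitotic members, against 21.7% of all genes with a promoter. CCAAT boxes (CCAAT on either strand) were found in 14 of 25 S-phase and 14 of 16 mitotic members, against 41.1% of all genes with a promoter. The Cdkn1a promoter window held none of these letters. Such matches describe the sequence and are not measured binding sites.

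The stretches below show both kinds of letters in capitals, in genes whose values follow. Rrm2 (chr12:24708004-24708063, plus strand), Rrm1 (chr7:102441601-102441660, plus strand) and Mcm6 (chr1:128359716-128359775, minus strand) hold E2F letters, and in Mcm6 a pair of matches overlap. Ube2c (chr2:164769869-164769928, plus strand), Kif11 (chr19:37376322-37376381, plus strand) and Mki67 (chr7:135716445-135716504, minus strand) hold CHR letters, in Mki67 at more than one place.
Rrm2: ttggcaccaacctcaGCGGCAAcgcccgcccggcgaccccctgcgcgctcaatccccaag
Rrm1: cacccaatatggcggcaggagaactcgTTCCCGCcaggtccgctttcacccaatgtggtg
Mcm6: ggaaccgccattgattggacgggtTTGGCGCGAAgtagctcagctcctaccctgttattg
Ube2c: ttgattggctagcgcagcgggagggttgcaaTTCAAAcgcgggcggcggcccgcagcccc
Kif11: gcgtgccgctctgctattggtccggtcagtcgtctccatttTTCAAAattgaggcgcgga
Mki67: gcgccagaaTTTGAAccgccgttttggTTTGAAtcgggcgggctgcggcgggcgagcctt

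Total counts per library ran from 11845470 to 17284863, and both extremes were SN-011 libraries (replicate 2 and replicate 1, respectively). At this depth 1 count was worth 0.0582 to 0.0849 CPM (counts per 1000000 counts of the library), with library totals scaled by trimmed mean of M-values (TMM) factors of 0.973 to 1.04. Trex1 itself had 0 counts in all 8 libraries, WT included, and its exons lie within exons of Atrip, so the knockout rests on the labels. The 14 macrophage markers summed to between 35939.6 and 38731 CPM in every library, but in Trex1-KO against WT 5 of them were called higher (edgeR adjusted p under 0.05, as for 16.4% of all tested genes in either direction) and none lower. Fcgr1, an Fc receptor gene, stood highest among the 5 with a log2 fold change of 1.14, and Cd68 had 0.44. Marker genes of stromal cells and of granulocytes also differed with genotype. The 15 stromal and fibroblast markers summed to 5215 and 4669.9 CPM in WT, and to between 1937 and 2797 CPM in the 6 Trex1-KO libraries, with or without antagonist, and 12 of the 14 tested were called lower in Trex1-KO (median log2 fold change -1.13). Not every gene of the list fell: Dcn was at 1.77 and 2.58 CPM in WT and at 3.09 and 2.90 CPM in Trex1-KO. Lum and Thy1 were at most 1.22 CPM in every library. The 14 granulocyte and myeloid progenitor markers summed to 11.5 and 13.0 CPM in WT and to between 72.3 and 105 CPM in the other 6 libraries, and 7 of the 9 tested were called higher. Of these 7, Camp (0.0736 and 0.474 CPM) and Cebpe (0.147 and 0.0678 CPM) were so low in WT that only Trex1-KO libraries kept them among the tested genes. For both, a call in the other direction was hardly possible. Among the defining genes of granulocytes, Ly6g was at 0 in both WT libraries and at most 0.255 CPM elsewhere. Erythroid and megakaryocyte markers summed to between 2.97 and 6.03 CPM, with Car1 and Gata1 at 0 in every library, and lymphoid and mast cell markers summed to between 1.03 and 2.22 CPM. The part of these cells in the results below was not tested. In bulk RNA, fewer cells in the cycle and less RNA per cell cannot be told apart.

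The 50 members summed to between 894 and 1006 CPM in the 8 libraries. Per length (CPM per kilobase of exon that no other gene shares, mean of 8 libraries), Cdkn1a was highest at 81.8, followed by Pcna at 49.4, E2f1 at 10.5 and Mcm6 at 10.3. The lowest were Mcm10, a helicase activator, at 0.457, the kinetochore protein gene Cenpf at 0.525 and the licensing factor gene Cdc6 at 0.526. Among mitotic members, Ccnb2, which encodes cyclin B2, was highest at 5.70, followed by Ube2c, the ubiquitin-conjugating enzyme of the anaphase-promoting complex, at 5.16. The highest library exceeded the lowest by 1.17-fold for Pola1, the catalytic subunit of DNA polymerase alpha, and by 3.0-fold for Ccnb2. For Fen1 and Gins2, 84.2% and 67.3% of the exon bases are shared with other genes and the counting may have left out reads there. Fen1, the nuclease that trims Okazaki fragments, had 14 counts in its lowest library. WT libraries held it at 1.10 and 1.56 CPM, against 1.51 and 1.98 CPM in Trex1-KO, 1.14 and 1.41 CPM with H151 and 1.98 and 2.29 CPM with SN-011, and it was not called in any of the 6 comparisons. Counts of named pseudogene copies were low, with 3 to 10 counts for Pcna-ps2 and 12 to 33 for Ccnb2-ps.

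**Figure D1:**
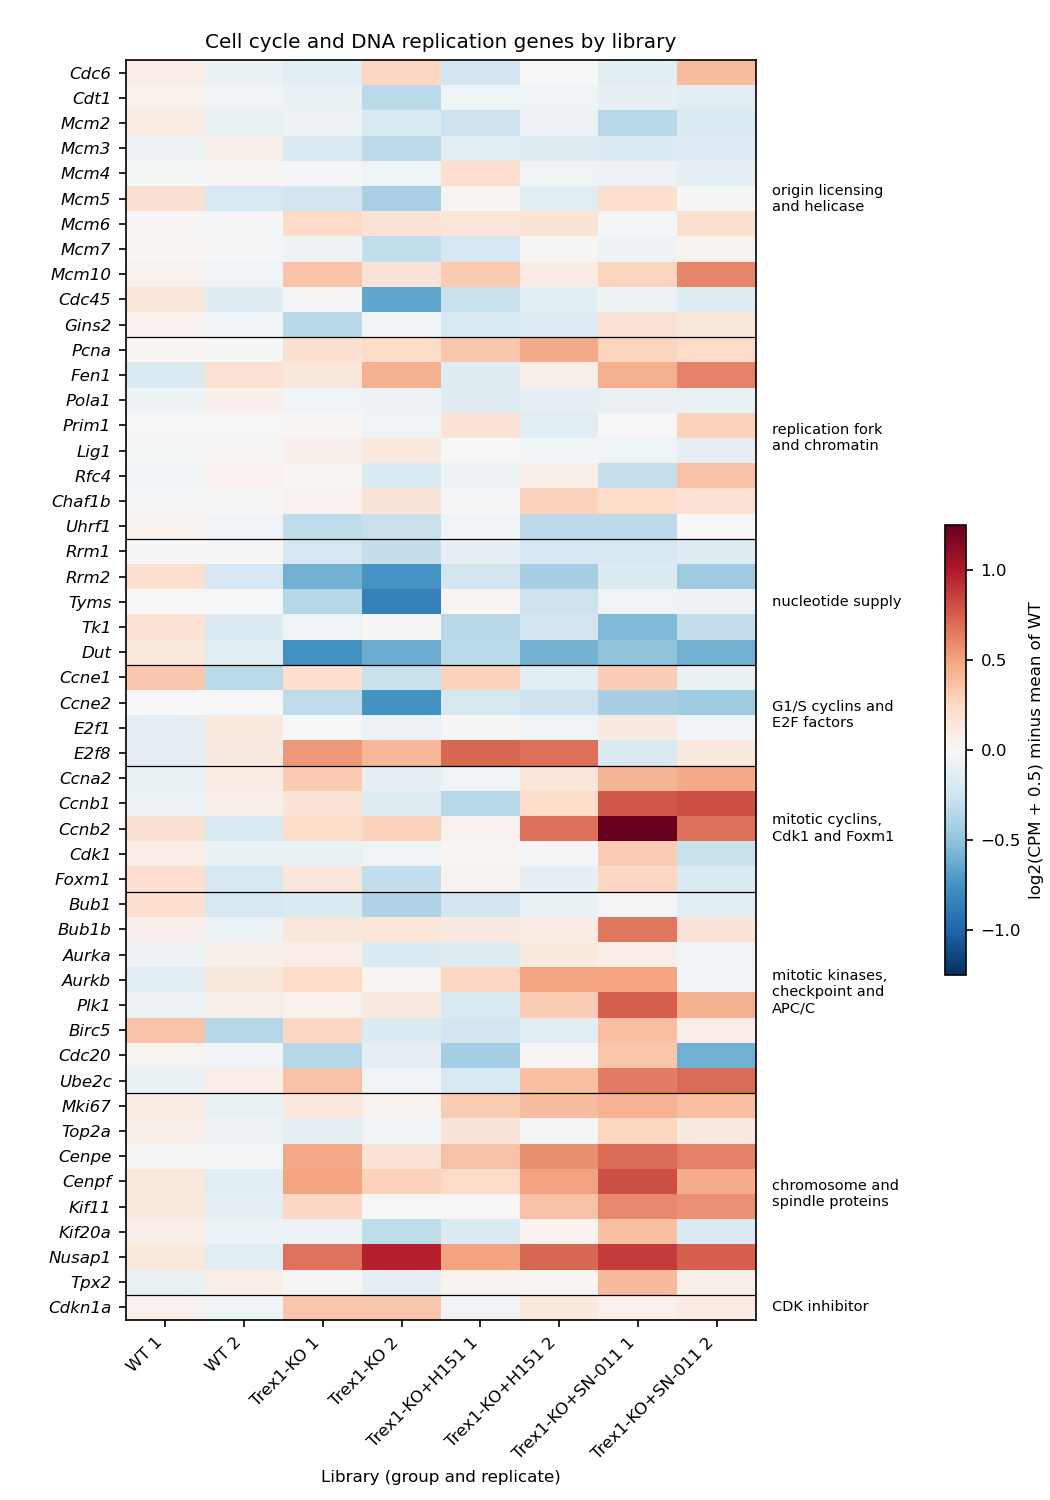
Log2(CPM + 0.5) of each of the 50 members (rows, grouped by role) in each of the 8 libraries (columns), as the difference from the mean of the 2 WT libraries; red is higher and blue is lower. Rrm2 and Dut are blue and Cdkn1a, Pcna and Nusap1 are red in both Trex1-KO libraries, and averaged over the mitotic rows the column of SN-011 replicate 1 is the highest.

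Trex1-KO was compared with WT to measure how loss of Trex1 moved these genes. Of the 50 members, 5 passed edgeR's quasi-likelihood test at a Benjamini-Hochberg adjusted p under 0.05 (hereafter called), against 16.4% of all tested genes (9.27% higher and 7.11% lower), and 12 had an unadjusted p under 0.05, against 27.2% of all tested genes. Cdkn1a, Pcna and Nusap1 were higher in Trex1-KO, and Rrm2 and Dut were lower. The median log2 fold change of the members was -0.04, and that of all tested genes was -0.00. By role, the medians were -0.08 for the S-phase members and 0.08 for the mitotic members, and they were -0.16 and -0.00 when libraries were scaled by total counts only. With 1 library left out, the mitotic median ran from -0.07 (without Trex1-KO replicate 1) to 0.15 (without Trex1-KO replicate 2), with 8 to 16 of 21 positive, and the S-phase median from -0.21 (without WT replicate 2) to -0.05. No member's fold change reached 2. In 12 members both Trex1-KO libraries lay above both WT libraries and in 12 both lay below, against 28.6% and 27.5% of all tested genes.

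Cdkn1a (ENSMUSG00000023067, chromosome 17, 29090976 to 29100727), the inhibitor that interferon and p53 signaling induce, was counted at 256 and 237 CPM in WT and at 313 and 314 CPM in Trex1-KO. Both Trex1-KO libraries lay above both WT libraries, and the log2 fold change was 0.35 (SE 0.07, adjusted p = 0.00242 by edgeR). Pcna (ENSMUSG00000027342, chromosome 2, 132249162 to 132253314), the clamp that holds DNA polymerase on its template, was at 103 and 99.6 CPM in WT and at 115 and 119 CPM in Trex1-KO. Its log2 fold change was small, 0.21 (SE 0.07, adjusted p = 0.0418 by edgeR), and the groups did not overlap. With total counts only its log2 fold change was 0.13, and the call was lost there, with the at-least-1-count filter and with DESeq2. Nusap1 (ENSMUSG00000027306, chromosome 2, 119618298 to 119651244), a spindle-binding protein gene, was the only one of 21 mitotic members called. It was at 3.09 and 2.51 CPM in WT and at 4.75 and 5.94 CPM in Trex1-KO, a log2 fold change of 0.94 (SE 0.23, adjusted p = 0.0119 by edgeR).

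Genes of nucleotide supply stood lowest among the roles. All 5 had a negative log2 fold change (median -0.66), 4 had an unadjusted p under 0.05 (27.2% of all tested genes did), 4 had both Trex1-KO libraries below both WT libraries (27.5% of all tested genes) and 2 were called (7.11% were called lower). Without Trex1-KO replicate 2 the median was -0.40 and 1 was called, and without WT replicate 1 it was -0.50, with 1 of 5 positive and none called. Rrm2 (ENSMUSG00000020649, chromosome 12, 24708241 to 24714146), the regulated subunit of ribonucleotide reductase, was at 11.3 and 8.27 CPM in WT and at 6.19 and 5.61 CPM in Trex1-KO, a log2 fold change of -0.73 (SE 0.20, adjusted p = 0.0205 by edgeR). Dut (ENSMUSG00000027203, chromosome 2, 125247190 to 125258608), which removes dUTP so that uracil is not built into DNA, was at 8.69 and 7.12 CPM in WT and at 4.45 and 4.95 CPM in Trex1-KO, a log2 fold change of -0.74 (SE 0.20, adjusted p = 0.0180 by edgeR). Neither gene overlapped between the groups. Tyms, which encodes thymidylate synthase, was at 5.37 and 5.35 CPM in WT and at 4.07 and 2.77 CPM in Trex1-KO, and its log2 fold change of -0.66 did not pass (SE 0.23, adjusted p = 0.0753 by edgeR). Rrm1, the large subunit of ribonucleotide reductase, was at 39.5 and 40.6 CPM in WT and at 34.3 and 32.6 CPM in Trex1-KO, with a log2 fold change of -0.26 that did not pass either (SE 0.09, adjusted p = 0.0581 by edgeR). Tyms passed with total counts only, with the at-least-1-count filter, with the exact test of edgeR and without Trex1-KO replicate 1, and Rrm1 passed with total counts only. The fifth gene, Tk1, which encodes thymidine kinase, differed by -0.03 on the log2 scale, and its libraries overlapped.

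In Trex1-KO, 20 of 28 S-phase members had a negative log2 fold change. Medians of the other S-phase roles were -0.19 (origin licensing and helicase), 0.04 (replication fork and chromatin) and -0.06 (G1/S regulators). With 1 library left out the first ran from -0.22 to -0.07, with 2 to 3 of 11 positive. The replication fork and chromatin members had 4 positive and 4 negative log2 fold changes. Of 11 origin licensing and helicase members none was called, 3 had a positive and 8 a negative log2 fold change, and the range was -0.37 (Cdc45, the helicase subunit, with 3.46 and 2.71 CPM in WT and 3.02 and 1.78 CPM in Trex1-KO) to 0.30 (Mcm10). Within the MCM ring, Mcm6 was at 44.5 and 43.9 CPM in WT and at 52.3 and 50.3 CPM in Trex1-KO (log2 fold change 0.21, edgeR adjusted p = 0.121), whereas Mcm5 was at 13.5 and 10.2 CPM in WT and at 9.81 and 8.70 CPM in Trex1-KO (-0.35, edgeR adjusted p = 0.204). Subunits of one complex differed in sign, with neither called. Of the G1/S regulators, E2f8, an E2F repressor, differed by 0.52 on the log2 scale (edgeR adjusted p = 0.115) and cyclin E2 (Ccne2), at 3.90 and 3.86 CPM in WT and 3.02 and 2.11 CPM in Trex1-KO, by -0.61 (edgeR adjusted p = 0.139). E2f1, an E2F activator, was at 30.5 and 36.2 CPM in WT and at 33.4 and 31.6 CPM in Trex1-KO, and differed by -0.04 with a 95% interval of -0.26 to 0.18. Mitotic kinases, checkpoint and APC/C genes ranged from -0.32 (Bub1) to 0.17 (Ube2c), and none of these 8 was called.

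These calls rested on 2 libraries a group. Without WT replicate 1, without WT replicate 2 or without Trex1-KO replicate 2, 2 of the 50 members were called, and without Trex1-KO replicate 1, 4 were. Cdkn1a missed the threshold only without WT replicate 2 (edgeR adjusted p = 0.0514), Nusap1 without WT replicate 2 or Trex1-KO replicate 2, Dut without WT replicate 1 or Trex1-KO replicate 1, and Rrm2 without WT replicate 1 or Trex1-KO replicate 2. Pcna missed it without each of the 4. DESeq2 called 3 members in place of 5, and scaling by total counts only called 7. The summed stromal markers, at 4669.9 to 5215 CPM in WT and 1937 to 2438 CPM in Trex1-KO, were lower, as were Rrm2 and Dut. The summed granulocyte markers, at 11.5 to 13.0 CPM in WT and 72.3 to 90.3 CPM in Trex1-KO, were higher, as were Cdkn1a, Pcna and Nusap1. The part of these cells in the calls was not tested.

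**Figure D2:**
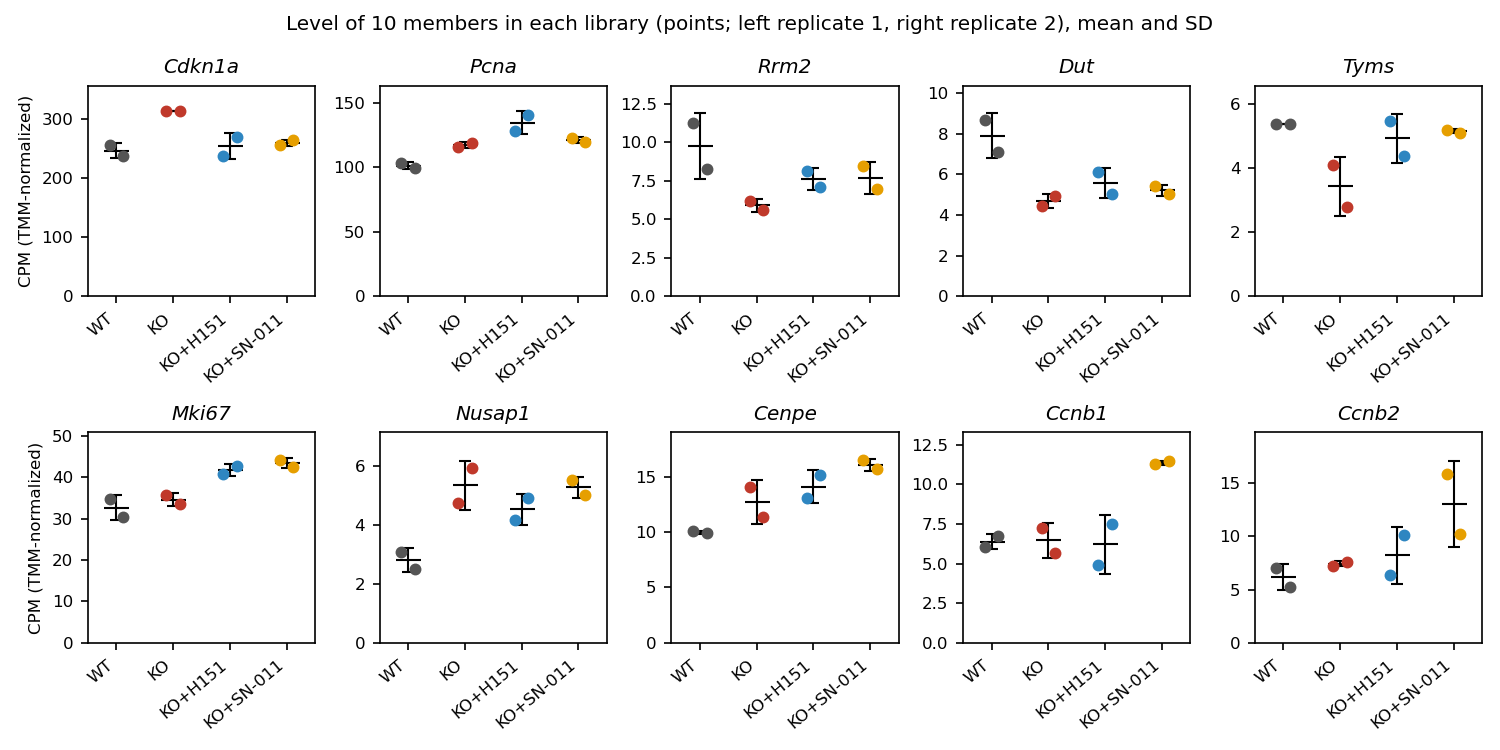
CPM of 10 members (panels; linear axes from 0) in the 2 libraries of WT, Trex1-KO (KO), Trex1-KO+H151 and Trex1-KO+SN-011; points are libraries, the long bar is the mean and the whiskers are 1 SD. Cdkn1a is highest in Trex1-KO, Rrm2, Dut and Tyms are lowest there, and Ccnb1 is between 4.89 and 7.52 CPM in 3 groups and at 11.3 and 11.5 CPM with SN-011.

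To measure what STING inhibition did to these genes, Trex1-KO cells with H151 were set against those with vehicle. Of the 50 members 1 was called, Cdkn1a, against 2.23% of all tested genes (0.384% higher and 1.84% lower), and 4 had an unadjusted p under 0.05, against 9.36% of all tested genes. Cdkn1a was at 313 and 314 CPM with vehicle and at 238 and 269 CPM with H151, a log2 fold change of -0.30 (SE 0.07, adjusted p = 0.0299 by edgeR). This fall shares its 2 vehicle libraries with the rise in Trex1-KO against WT and is not independent of it. The H151 libraries overlapped the WT libraries, at 256 and 237 CPM, and the log2 fold change of H151-treated Trex1-KO against WT was 0.04, with a 95% interval of -0.10 to 0.19. The call was lost without either Trex1-KO library or without H151 replicate 1, the last giving -0.22 (edgeR adjusted p = 0.231), and in a fit of these 2 groups alone.

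No S-phase or mitotic member was called with H151. In 14 members both H151 libraries lay above both vehicle libraries and in 7 both lay below, against 17.5% and 17.9% of all tested genes. The median log2 fold changes of the S-phase and mitotic members were 0.10 and 0.06. With 1 library left out the mitotic median ran from -0.12 (without H151 replicate 2) to 0.22 (without H151 replicate 1), with 9 to 17 of 21 positive, and the S-phase median from 0.03 (without Trex1-KO replicate 2) to 0.13. The lowest adjusted p values were 0.221 (Pcna) and 0.236 (Mki67). Mki67, the proliferation marker Ki-67, was at 35.7 and 33.5 CPM with vehicle and at 40.7 and 42.8 CPM with H151, a log2 fold change of 0.27 (SE 0.09). Tyms was at 5.46 and 4.37 CPM with H151 and Rrm2 at 8.15 and 7.12 CPM, above both vehicle libraries in each case, but their log2 fold changes of 0.52 and 0.37 did not pass (edgeR adjusted p = 0.511 and 0.653). Nucleotide supply genes had 4 of 5 positive log2 fold changes with a median of 0.24 (0.10 without H151 replicate 1, 0.37 without H151 replicate 2), and the comparison shares its Trex1-KO libraries with the one against WT. For 48 of 50 members the 95% interval of the H151 effect lay within a 2-fold change in either direction, and the exceptions were Fen1 and Tyms.

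SN-011 was compared with vehicle in the same cells. No member was called, against 2.33% of all tested genes (0.110% higher and 2.22% lower), and 14 had an unadjusted p under 0.05 (11 with positive and 3 with negative log2 fold changes), against 12.0% of all tested genes (4.76% and 7.27%). DESeq2 called 1 member (Cdkn1a) and the exact test of edgeR called 4 (Cdkn1a, Ccnb1, Ccnb2 and Mki67). Among the mitotic members 20 of 21 had a positive log2 fold change, the median was 0.32, and in 12 of 21 both SN-011 libraries lay above both vehicle libraries, against 21.8% of all tested genes. For S-phase members the median was 0.11, with 21 of 28 positive, 9 of 28 above in this sense and 5 of 28 below, against 21.6% of all tested genes below. Without Trex1-KO replicate 2 the S-phase median was 0.04 with 17 of 28 positive.

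Among the mitotic cyclins, Ccnb1 (ENSMUSG00000041431, chromosome 13, 100778650 to 100786570), which encodes cyclin B1, the activator of Cdk1 at entry to mitosis, was at 7.24 and 5.67 CPM with vehicle and at 11.3 and 11.5 CPM with SN-011. Its log2 fold change of 0.82 missed the threshold (SE 0.20, adjusted p = 0.0536 by edgeR), and passed it with the at-least-1-count filter, when libraries were scaled by total counts, in a fit of the 2 groups alone and with the exact test of edgeR. Ccnb2 (ENSMUSG00000032218, chromosome 9, 70407692 to 70421547) was at 7.24 and 7.58 CPM with vehicle and at 15.9 and 10.2 CPM with SN-011, with a log2 fold change of 0.83 (SE 0.24, adjusted p = 0.120 by edgeR). In neither gene did the groups overlap, and the SN-011 libraries of Ccnb2 stood far apart. Cdk1 itself was at 12.6 and 12.9 CPM with vehicle and at 16.8 and 11.0 CPM with SN-011, and its groups overlapped.

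Of the mitotic kinases and APC/C genes, Plk1, a kinase that acts from centrosome maturation to cytokinesis, was at 4.60 and 4.81 CPM with vehicle and at 7.80 and 6.20 CPM with SN-011 (log2 fold change 0.58, edgeR adjusted p = 0.277). Ube2c was at 11.2 and 8.24 CPM with vehicle and at 13.6 and 14.2 CPM with SN-011 (0.52, edgeR adjusted p = 0.276). Aurkb, the kinase of the chromosomal passenger complex, was at 7.09 and 6.07 CPM and at 8.49 and 5.78 CPM, and these groups overlapped, as did those of Aurka, Birc5 and Cdc20. Bub1, a spindle checkpoint kinase, was at 3.85 and 3.30 CPM with vehicle, 4.36 and 3.99 CPM with SN-011, 3.67 and 4.16 CPM with H151 and 5.15 and 3.80 CPM in WT. Of the chromosome and spindle genes, Kif11, the kinesin that separates spindle poles, was at 9.58 and 7.98 CPM with vehicle and at 12.3 and 12.1 CPM with SN-011 (0.48, edgeR adjusted p = 0.250). Mki67 was at 44.3 and 42.5 CPM with SN-011 (0.33, edgeR adjusted p = 0.0950), and Top2a, the topoisomerase that untangles sister chromatids, at 28.9 and 26.0 CPM against 22.2 and 23.3 CPM with vehicle (0.27, edgeR adjusted p = 0.309). Nusap1, already higher in Trex1-KO than in WT, was at 5.53 and 5.01 CPM, a difference of -0.02.

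The summed level of the 21 mitotic members was 212 and 193 CPM with vehicle, 203 and 227 CPM with H151, and 276 and 233 CPM with SN-011, where WT stood at 201 and 185 CPM. Both SN-011 sums were the highest of the 8. The replicate with 276 CPM, SN-011 replicate 1, was also the most deeply sequenced library. Without it the median log2 fold change of the mitotic members was 0.13 in place of 0.32 and 15 of 21 were positive, and without SN-011 replicate 2 it was 0.40 with 21 of 21 positive. The SN-011 libraries carry later record numbers and other treatment text than the rest, and a batch limited to them cannot be told apart from SN-011. The summed S-phase members were 475 and 459 CPM with vehicle, 493 and 497 CPM with H151 and 473 and 482 CPM with SN-011.

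**Figure D3:**
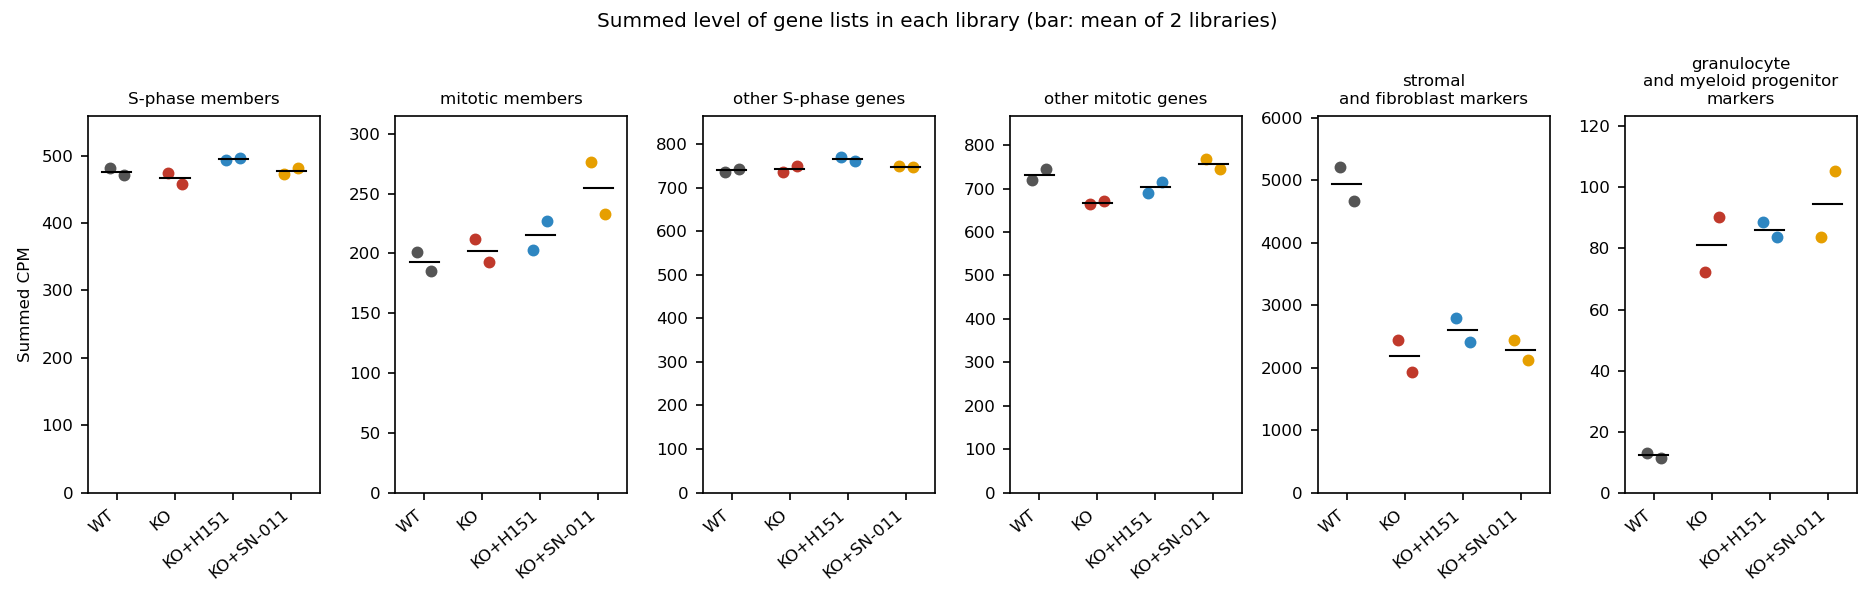
Summed CPM (linear axes from 0) of the S-phase members, the mitotic members, lists of other S-phase and other mitotic genes, and markers of stromal cells and of granulocytes and myeloid progenitors, in each library; points are libraries and bars are means of 2. Mitotic members reach 276 and 233 CPM with SN-011 and stay between 185 and 227 CPM in the other 6 libraries, whereas stromal and granulocyte markers divide WT from all Trex1-KO libraries.

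Of the 3 members with a negative log2 fold change and an unadjusted p under 0.05 with SN-011 (Cdkn1a, Tk1 and E2f8), none was called. Cdkn1a was at 256 and 264 CPM with SN-011, below both vehicle libraries at 313 and 314 CPM, and its log2 fold change of -0.27 missed the threshold narrowly (SE 0.07, adjusted p = 0.0539 by edgeR). It passed with DESeq2 (adjusted p = 0.0289), with RLE factors, with the at-least-1-count filter, in a fit of the 2 groups alone and with the exact test of edgeR, but not with total counts only. E2f8 was at 6.11 and 5.54 CPM with vehicle and at 3.49 and 4.42 CPM with SN-011 (-0.57, SE 0.21, adjusted p = 0.254 by edgeR). Tk1 was at 15.7 and 16.5 CPM with vehicle and at 11.0 and 13.2 CPM with SN-011 (-0.43, SE 0.15, adjusted p = 0.235 by edgeR). In both genes the SN-011 libraries lay below the vehicle libraries. Rrm2 and Tyms, at 8.44 and 6.96 CPM and at 5.18 and 5.10 CPM with SN-011, lay above vehicle, and neither passed (log2 fold changes 0.40 and 0.60, edgeR adjusted p = 0.457 and 0.307). Mcm5 was at 13.5 and 11.6 CPM (0.45, edgeR adjusted p = 0.280).

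The 2 antagonists were compared directly, after the same 12 h and, per the study's methods, at the same dose. Here too a batch limited to the SN-011 libraries cannot be told apart from the compound. All 50 members were compared, with p-values adjusted over all 14591 tested genes. No member was called, against 0.158% of all tested genes, all of them lower with SN-011, and 8 had an unadjusted p under 0.05 (6 mitotic members with positive log2 differences, and E2f8 and Pcna with negative ones), against 8.91% of all tested genes (4.27% positive and 4.64% negative). DESeq2 called none and the exact test of edgeR called 2, Ccnb1 and E2f8. Of the mitotic members 20 of 21 had a positive log2 difference (SN-011 minus H151, median 0.22), and in 11 of 21 both SN-011 libraries lay above both H151 libraries, against 19.7% of all tested genes. Of the S-phase members 3 of 28 lay above in this sense, against the same 19.7%, and 7 of 28 below, against 20.0%. Without SN-011 replicate 1 the median was 0.06 with 15 of 21 positive. Without H151 replicate 2 it was 0.35 with 21 of 21 positive, and Ccnb1 and Ube2c were then called. Without SN-011 replicate 2 it was 0.39 with 21 of 21 positive.

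The largest differences were those of Ccnb1 and E2f8. Ccnb1 was at 4.89 and 7.52 CPM with H151 against 11.3 and 11.5 CPM with SN-011, a log2 difference of 0.86 with a 95% interval of 0.42 to 1.30 (edgeR adjusted p = 0.218). E2f8 was at 6.93 and 6.78 CPM with H151 against 3.49 and 4.42 CPM with SN-011, a log2 difference of -0.81 with an interval of -1.25 to -0.37 (edgeR adjusted p = 0.256). In both genes the groups did not overlap. Ccnb2 differed by 0.67 (0.15 to 1.18), Plk1 by 0.56 (0.09 to 1.04) and Ube2c by 0.56 (0.14 to 0.98). For Cdkn1a the difference was 0.03 with an interval of -0.11 to 0.18, for Mki67 0.06 (-0.14 to 0.25), and for Rrm2 0.03 (-0.39 to 0.45). The intervals are for each gene alone, without adjustment. For 44 of 50 members they lay within a 2-fold difference in either direction, and for 6 (Ccnb1, Ccnb2, Plk1, Birc5, E2f8 and Fen1) they reached beyond it.

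**Figure D4:**
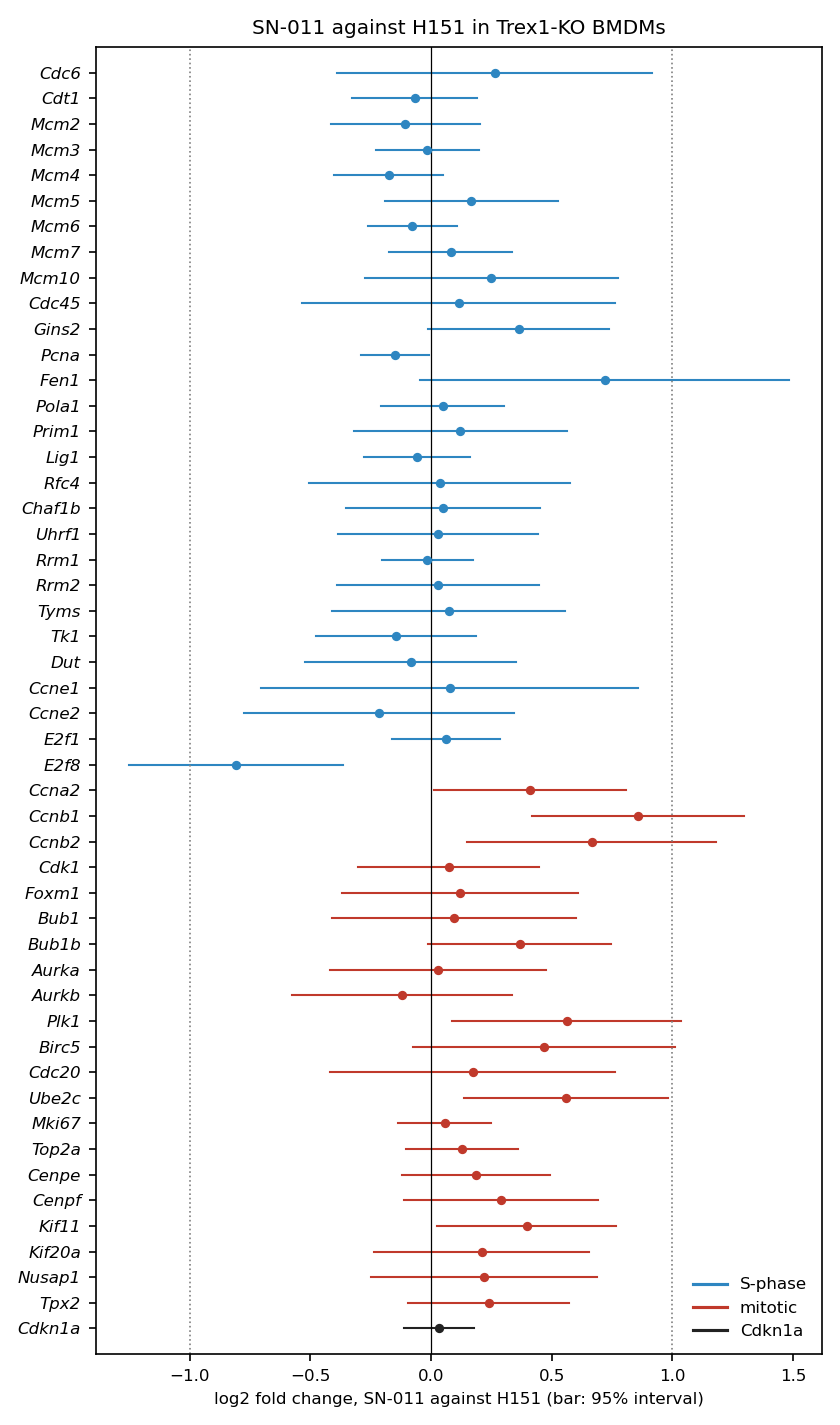
Log2 fold change of SN-011 against H151 for each of the 50 members (rows), with bars for the unadjusted 95% interval from the edgeR quasi-likelihood fit; dotted lines mark a 2-fold difference. All mitotic points except that of Aurkb lie right of 0, S-phase points lie on both sides, and E2f8 at -0.81 and Ccnb1 at 0.86 lie farthest out.

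Treated Trex1-KO BMDMs were also compared with WT. With H151, 4 members were called, all higher, against 11.8% of all tested genes in either direction (6.79% higher and 5.04% lower). They were Pcna (128 and 141 CPM against 103 and 99.6 CPM in WT, log2 fold change 0.41, SE 0.07, adjusted p = 0.000836 by edgeR), E2f8 (3.68 and 4.41 CPM in WT, 0.76, SE 0.20, adjusted p = 0.0274), Mki67 (0.36, SE 0.09, adjusted p = 0.0210) and Cenpe (0.50, SE 0.15, adjusted p = 0.0446). Cenpe, a kinesin of the kinetochore, was at 10.1 and 9.90 CPM in WT and at 13.0 and 15.2 CPM with H151. The Pcna call remained without each of the 4 libraries in turn. The count was 2 without WT replicate 1, 1 without WT replicate 2, 1 without H151 replicate 2 and 3 without H151 replicate 1, and with DESeq2 it was 1. Rrm2 and Dut were at 8.15 and 7.12 CPM and at 6.11 and 5.04 CPM with H151, below both WT libraries each (log2 fold changes -0.36 and -0.51), and neither passed. In all, both H151 libraries lay above both WT libraries in 10 members and below in 9, against 26.7% and 25.4% of all tested genes.

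With SN-011, 9 members were called against WT, all higher, against 11.7% of all tested genes in either direction (6.18% higher and 5.57% lower). Of these 8 were mitotic (8 of 21) and 1, Pcna, was an S-phase member. The mitotic median was 0.41, and in 12 of 21 both SN-011 libraries lay above both WT libraries, where 28.8% of all tested genes did. Of the S-phase members 5 of 28 lay above, against the same 28.8%, and 11 of 28 below, against 25.5%. Ccnb2 was at 7.07 and 5.29 CPM in WT, a log2 fold change of 1.10 (SE 0.25, adjusted p = 0.00915 by edgeR) and the only one of a member past 2-fold in any comparison. Ccnb1, at 6.04 and 6.71 CPM in WT, had 0.83 (SE 0.20, adjusted p = 0.0146 by edgeR). Both cyclins encode partners of Cdk1. Cenpe was at 16.5 and 15.7 CPM with SN-011 (0.69, SE 0.15, adjusted p = 0.00678 by edgeR), Mki67 had 0.41 (SE 0.09, adjusted p = 0.00832 by edgeR) and Nusap1 0.92 (SE 0.23, adjusted p = 0.0180 by edgeR). Ube2c, Kif11 and Cenpf were called at 0.69, 0.61 and 0.70, and Pcna at 0.26 (edgeR adjusted p = 0.0356, 0.0346, 0.0298 and 0.0182). Cenpf lies outside the rule for named genes and was named after its values were seen.

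The comparison shares its SN-011 libraries with those above and is no separate support for them. It depended on single libraries: 0 members were called without SN-011 replicate 1, 4 without SN-011 replicate 2 (Cenpf, Cenpe, Ccnb2 and Bub1b), 2 without WT replicate 1 (Mki67 and Ccnb2) and 1 without WT replicate 2 (Tk1, lower), while all log2 fold changes of the 9 kept their sign. Without SN-011 replicate 1 the mitotic median was 0.17 with 14 of 21 positive, and without any 1 of the other 3 libraries it lay between 0.40 and 0.50. Without SN-011 replicate 1, Ccnb2 stood at 0.73 and Ccnb1 at 0.85. In the nucleotide supply genes, 5 of 5 log2 fold changes against WT were negative with each antagonist (medians -0.31 with H151 and -0.33 with SN-011) and none was called. Without WT replicate 1 these medians were -0.15 and -0.21, without WT replicate 2 they were -0.49 and -0.55, and without SN-011 replicate 2 the latter was -0.22. Without H151 replicate 2, 1 of 5 was positive with H151. Dut and Tk1 were called lower with SN-011 under total counts only, the at-least-1-count filter, a fit of the 2 groups alone and the exact test of edgeR. Stromal markers summed to 2411 and 2797 CPM with H151 and to 2121 and 2451 CPM with SN-011, both below WT, and granulocyte markers to between 83.7 and 105 CPM, above WT. Their part in these differences was not tested.

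**Figure D5:**
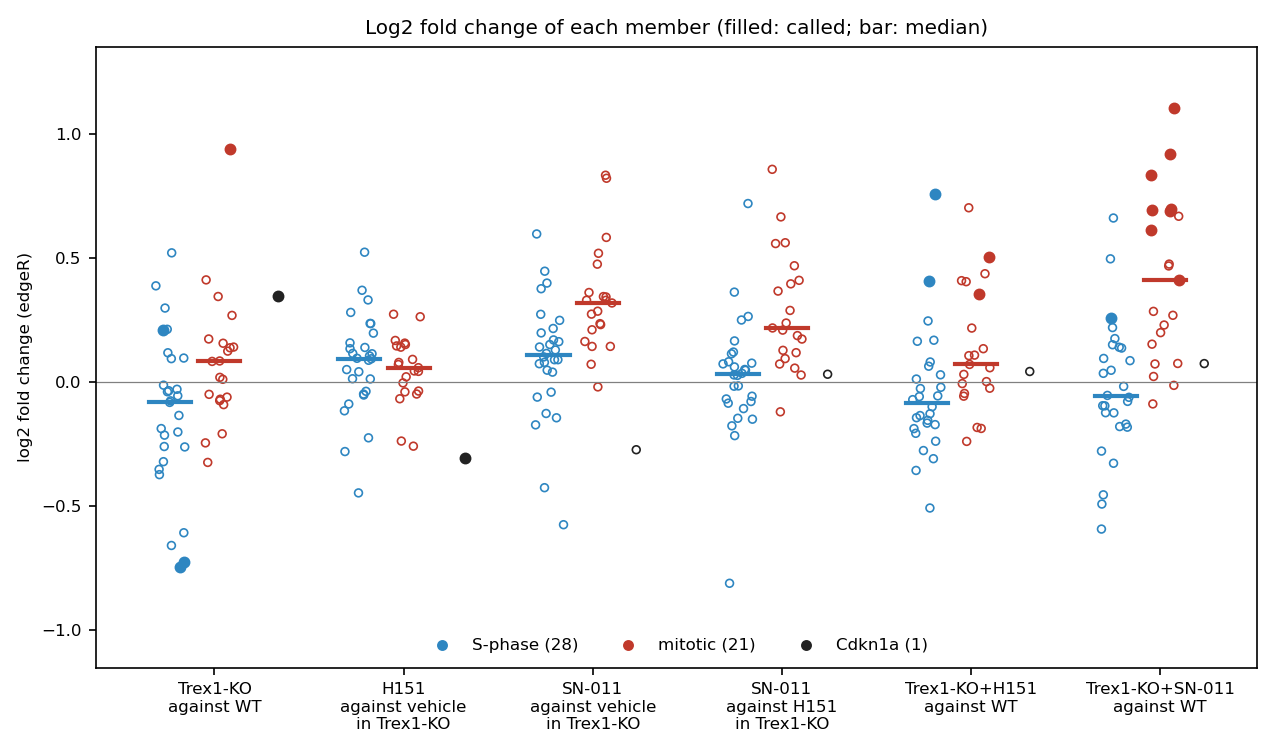
Log2 fold change (edgeR) of each member in the 6 comparisons; blue points are the 28 S-phase members, red the 21 mitotic members and black Cdkn1a, filled points were called and horizontal bars are medians. Mitotic medians are 0.32 for SN-011 against vehicle and 0.41 for SN-011-treated Trex1-KO against WT, where 8 red points are filled, and S-phase medians lie between -0.08 and 0.11 throughout.

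Further genes of the pathway were taken from 4 lists. Of 50 other mitotic genes, 5 were called in Trex1-KO against WT (3 higher, 2 lower), against 16.4% of all tested genes. Of those called higher, the top 2 were Nek2, a centrosomal kinase (2.39 to 4.12 CPM, log2 fold change 0.78), and Pttg1, which encodes securin (14.9 to 23.2 CPM, 0.64). Those called lower were Prc1, a bundler of spindle microtubules (10.4 to 6.41 CPM, -0.72), and Cenpa, the histone H3 variant of centromeres (176 ± 16.8 to 111.0 ± 7.75 CPM, SD, n = 2, -0.67). With SN-011 against vehicle none of these 50 was called, while 44 of 50 were positive (median log2 fold change 0.29) and 28 of 50 had both SN-011 libraries above both vehicle libraries, against 21.8% of all tested genes. None was called with SN-011 against H151 (39 of 50 positive, median 0.21, which was 0.12 without SN-011 replicate 1, 0.13 without H151 replicate 1 and 0.32 without H151 replicate 2) or with H151 against vehicle (32 of 50 positive, median 0.07, and -0.02 with 22 of 50 positive without H151 replicate 2). In SN-011-treated Trex1-KO against WT 6 were called (5 higher, 1 lower), against 11.7% of all tested genes, led by the central spindle kinesin Kif23 (6.36 to 13.5 CPM, 1.09), the depolymerizing kinesin Kif2c (2.99 to 5.41 CPM, 0.85) and, lower, Cenpa (-0.40). In H151-treated Trex1-KO against WT 4 were called (2 higher, 2 lower), against 11.8%, among them Kif23 at 0.91 and Psrc1 at -0.57. In Trex1-KO against WT 2 of the 50 were called without either WT replicate and 3 without either Trex1-KO replicate. In SN-011-treated Trex1-KO against WT the count was 3 without WT replicate 1, 2 without WT replicate 2 and 3 without SN-011 replicate 1, and in H151-treated Trex1-KO against WT it was 1 and 2 without the WT replicates. DESeq2 called 3, 3 and 2 in the same order of comparisons. The direction of the mitotic members with SN-011 was also that of the larger list, in the same libraries.

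Of 50 other S-phase genes, 4 were called in Trex1-KO against WT, where 16.4% of all tested genes were. E2f2, an E2F activator, rose from 4.09 to 9.15 CPM (log2 fold change 1.16), and Timeless, a fork protection factor, rose from 4.10 to 7.83 CPM (0.94). Its partner Tipin fell from 9.85 to 6.68 CPM (-0.56) and the origin recognition subunit Orc6 from 10.8 to 7.10 CPM (-0.61). Timeless was the 1 gene of this list called with either antagonist against vehicle, 1 of 50 in each, against 2.23% (H151) and 2.33% (SN-011) of all tested genes. These comparisons share their vehicle libraries with the rise in Trex1-KO against WT. Timeless was lower at 3.94 CPM with H151 (-0.98, edgeR adjusted p = 0.0143) and at 4.54 CPM with SN-011 (-0.80, edgeR adjusted p = 0.0467), near its WT level of 4.10 CPM. With SN-011 this call was lost without each of the 4 libraries in turn, with DESeq2 and with total counts only, and with H151 it remained only without H151 replicate 2 among the 4. E2f2 was at 9.56 CPM (H151) and 10.2 CPM (SN-011), and was called against WT in both (1.23 and 1.31), beside Pole2 (-0.68, with H151) and Rfc5 (-0.47, with SN-011), which made 2 of 50 in each, against 11.8% and 11.7% of all tested genes. None of the list was called between SN-011 and H151. In Trex1-KO against WT the count was 2 without Trex1-KO replicate 2 and with DESeq2. Against WT it was 1 with H151 without WT replicate 1 or H151 replicate 1, and 1 with SN-011 without WT replicate 1 or SN-011 replicate 2.

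Of 24 genes of G1 regulators and CDK inhibitors, 7 were called in Trex1-KO against WT, again against 16.4% of all tested genes. Cdk6 rose from 62.6 ± 1.11 to 99.1 ± 2.06 CPM (SD, n = 2, log2 fold change 0.66) and cyclin D1 (Ccnd1) from 35.4 to 51.1 CPM (0.53). The inhibitor genes Cdkn2a and Cdkn2b fell from 5.14 to 1.32 CPM (-1.94) and from 6.51 to 2.66 CPM (-1.28). Cdkn1a, also a CDK inhibitor gene, was higher in this comparison. Stromal markers were lower and granulocyte markers higher in the same libraries, and their part in these differences was not tested. With H151 against vehicle, Myc was higher (10.9 to 16.9 CPM, 0.64) and Cdk6 lower (99.1 to 79.7 CPM, -0.31), which made 2 of 24, against 2.23% of all tested genes, and with SN-011 against vehicle or against H151 none of the 24 was called. Against WT, 6 were called with H151 (2 higher, 4 lower) and 4 with SN-011 (1 higher, 3 lower), against 11.8% and 11.7% of all tested genes, Cdkn2a and Cdkn2b being the lowest in both (-1.76 and -1.27, then -1.34 and -1.08), Cdk6 higher in both (0.35 and 0.43), and Ccnd1 higher with H151 (0.49). With 1 library left out, 5 to 6 of the 24 were called in Trex1-KO against WT. With H151 against vehicle the count was then 1 (Myc) without Trex1-KO replicate 1 and 0 without each of the other 3, and with H151 against WT it was 3 without WT replicate 2.

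Of 20 p53 targets, which were listed because Cdkn1a is one of them, 19 were tested and 7 were called in Trex1-KO against WT, against the same 16.4% of all tested genes. Rrm2b, the p53-induced subunit of ribonucleotide reductase, rose from 17.2 ± 0.054 to 23.8 ± 0.33 CPM (SD, n = 2, log2 fold change 0.47), while its S-phase counterpart Rrm2 fell. Trp53inp1 rose from 126 to 148 CPM (0.24), and Eda2r and Ddit4 fell from 3.28 to 1.30 CPM (-1.33) and from 10.2 to 4.73 CPM (-1.10). The list went both ways, with 3 higher and 4 lower. None was called with either antagonist against vehicle or between the antagonists. Against WT, 2 were called with H151 (Plk2 higher at 0.28, Phlda3 lower at -0.54), against 11.8% of all tested genes, and none with SN-011. In Trex1-KO against WT the count was 1 without WT replicate 1, 2 without Trex1-KO replicate 1, and 4 without either of the other 2 libraries or with DESeq2. With H151 against WT it was 0 without WT replicate 1, 1 without H151 replicate 1 and 8 without H151 replicate 2, and without the latter 1 was also called with H151 against vehicle and 1 with SN-011 against H151.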

How the data were processed

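Polyadenylated RNA of 8 BMDM libraries (2 per group) was sequenced as paired-end reads. The raw counts per Ensembl gene were deposited by the authors, one table per library; the study's methods name Trimmomatic, hisat2 and featureCounts with uniquely mapped pairs, while the submitters' processing notes name HISAT2, HTSeq and mm10, so which counter made the deposited counts is not settled, and versions are not given in the sources used here. Symbols and positions came from GENCODE release 21 (GRCm38), which matched 54495 of 54532 identifiers, all 50 members included.

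Genes were kept by filterByExpr (at least 10 counts, total of 15), which left 14591. Counts were tested with the quasi-likelihood F-test of edgeR 4.0.16 in R 4.3.3 (limma 3.58.1), with TMM factors, all 8 libraries in 1 fit, 1 mean per group and no covariate, two-sided, and p-values of all 14591 genes were adjusted together (Benjamini-Hochberg, 0.05 as threshold). Standard errors were derived from the fold change and its F value, and 95% intervals are per gene. The code was tested on simulated data. Tables and figures used Python 3.11.15 with pandas 2.3.3, numpy 2.4.6 and matplotlib 3.10.9. Depth was 11845470 to 17284863 counts, so that 3 counts, the limit that a count of 0 allows, equal 0.175 to 0.255 CPM, for counting error only. The alternatives were relative log expression (RLE) factors, total counts only, genes with at least 1 count (27065), DESeq2 1.42.0, the replicate number as a block, 2 groups only, the exact test of edgeR and each library left out.

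Members and lists were chosen with earlier results of these data known. Values per library are given for Mki67, Top2a, Cdkn1a, the most abundant member per role, the member with the largest change per role in Trex1-KO and with each antagonist, and up to 5 called members per comparison and direction. From each other list up to 2 called genes per direction are named; further names were chosen after their values were seen.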

Additional observations from a re-analysis of the deposited data

How the results depend on the processing

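Of 19 calls of members over the 6 comparisons, 8 held under all 7 other ways of processing and 1 (Pcna in H151-treated Trex1-KO against WT) also without each library in turn, and none changed sign. The cause was not tested where counts moved. In Trex1-KO against WT DESeq2 called 3 members, the exact test 6 and total counts only 7 (adding Tyms, Rrm1 and Mcm3 and losing Pcna), and the median log2 fold change was -0.12 with total counts only. With H151 against vehicle a fit of 2 groups only called 0. With SN-011 against vehicle, where the reported fit called 0, RLE factors called 1, total counts only 1, DESeq2 1, the at-least-1-count filter 3, 2 groups only 3 and the exact test 4. With SN-011 against H151 the at-least-1-count filter called 3 and the exact test 2, where the reported fit called 0. In H151-treated Trex1-KO against WT total counts only called 2 and DESeq2 1. In SN-011-treated Trex1-KO against WT the other ways called 6 (DESeq2) to 12. With 1 library left out, a group of 1 was assumed to vary like the others. The members called then ranged from 2 to 4 in Trex1-KO against WT, 0 to 1 with H151, 0 with SN-011 against vehicle, 0 to 2 with SN-011 against H151, 1 to 3 in H151-treated Trex1-KO against WT and 0 to 4 in SN-011-treated Trex1-KO against WT. The members' medians ranged from -0.08 to 0.03, 0.01 to 0.14, 0.09 to 0.25, 0.04 to 0.12, -0.06 to 0.01 and 0.05 to 0.18 in the same order.

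Replicate numbers are shared between groups, but the labels do not say what they stand for. Deviations of same-numbered libraries correlated at 0.19 between Trex1-KO and H151, and at -0.02 to 0.06 in the other 5 pairs of groups, across 14591 genes. With the replicate block 2 members, Ccnb1 and Cdkn1a (edgeR adjusted p = 0.0366 and 0.0381), were called with SN-011 against vehicle, and the counts of the other comparisons were 5, 1, 0, 4 and 9, as without the block. Low counts limited precision: for Fen1, with 14 counts in its lowest library, the 95% interval of SN-011 against H151 ran from -0.04 to 1.48 on the log2 scale.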
